A study of Homo sapiens with 6 samples.

Results

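The kinesin motor genes were described in SW872 cells, a human liposarcoma cell line, after treatment with Apatinib, a small-molecule inhibitor of the VEGF receptor KDR. The members were all genes of the deposited count table whose symbol is KIF or KIFC followed by a number and at most 1 letter from A to C, which gave 42 of 57773 genes. They were divided by known function into 12 mitotic kinesins (KIF4A, KIF11, KIF14, KIF15, KIF18A, KIF18B, KIF20A, KIF20B, KIF22, KIF23, KIF2C and KIFC1) and 30 other kinesins. The Apatinib group held 3 replicates of SW872 cells exposed to 18 μM Apatinib for 24 h, and the control group held 3 replicates of untreated SW872 cells, for which no vehicle is named. All 6 samples came from 1 established cell line grown in the same serum-supplemented medium, so the values describe this line.

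Kinesins are motor proteins that hydrolyse ATP to move along microtubules or to shorten their ends. The mitotic members build the spindle, align and separate the chromosomes, and complete cytokinesis, and their mRNAs are known to accumulate in G2 and M phase, when the MuvB complex and NF-Y act at the CHR and CCAAT elements of their promoters. The other members mostly carry vesicles, organelles, mRNAs or ciliary components and are used in dividing and non-dividing cells alike.

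The promoters of the 5 mitotic kinesins with the smallest p values and of KIF2A, the other kinesin with the highest mean FPKM over the 6 samples, are shown because these 2 kinds of element mark the mitotic class. Each stretch runs from 150 bases before the RefSeq start site to 30 bases from it, on the gene's own strand, in build GRCh38.p14. Capitals mark the letters searched for on both strands. These are CHR (TTTGAA, or TTCAAA when reversed), its variant TTTAAA, which reads the same on both strands, the CCAAT box (CCAAT, or ATTGG when reversed) and the E2F site (TTTGGCGC, TTTGCCGC, TTTCGCGC or TTTCCCGC, in either direction).
KIF15, chr3:44761644-44761823, + strand: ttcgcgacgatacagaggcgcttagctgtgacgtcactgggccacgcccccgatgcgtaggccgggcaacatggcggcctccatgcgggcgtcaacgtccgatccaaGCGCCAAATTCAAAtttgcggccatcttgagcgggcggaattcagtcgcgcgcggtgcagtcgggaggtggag
KIF18A, chr11:28108127-28108306, - strand: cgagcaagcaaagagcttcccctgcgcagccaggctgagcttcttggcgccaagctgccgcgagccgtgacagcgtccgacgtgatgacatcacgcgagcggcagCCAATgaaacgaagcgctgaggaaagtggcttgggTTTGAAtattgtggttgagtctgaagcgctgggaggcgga
KIF14, chr1:200620722-200620901, - strand: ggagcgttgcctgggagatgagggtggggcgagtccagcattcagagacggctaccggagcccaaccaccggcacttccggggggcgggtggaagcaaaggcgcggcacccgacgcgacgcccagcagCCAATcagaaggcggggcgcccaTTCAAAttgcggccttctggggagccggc
KIF11, chr10:92592980-92593159, + strand: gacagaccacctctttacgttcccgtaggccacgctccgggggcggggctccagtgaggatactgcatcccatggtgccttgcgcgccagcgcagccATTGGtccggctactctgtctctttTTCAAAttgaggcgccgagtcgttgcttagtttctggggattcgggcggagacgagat
KIF4A, chrX:70289954-70290133, + strand: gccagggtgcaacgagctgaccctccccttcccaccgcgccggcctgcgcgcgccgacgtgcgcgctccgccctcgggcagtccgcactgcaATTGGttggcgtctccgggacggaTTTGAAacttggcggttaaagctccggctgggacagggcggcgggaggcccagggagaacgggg
KIF2A, chr5:62306056-62306235, + strand: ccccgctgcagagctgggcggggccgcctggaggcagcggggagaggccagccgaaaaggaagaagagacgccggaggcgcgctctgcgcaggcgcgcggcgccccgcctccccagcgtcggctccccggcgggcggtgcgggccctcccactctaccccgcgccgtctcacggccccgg

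All 5 mitotic stretches held a CHR close to the start site, and 4 of them also held a CCAAT box upstream of it. In KIF15 the E2F match and the CHR adjoin and no CCAAT box was found. The KIF2A stretch held none of these letters. A match describes the sequence and does not show that a factor binds there.

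RefSeq promoters of 300 bases, 250 before and 50 from the start site, were found for 34 of the 42 kinesins, as 43 promoters. A CHR in either form was present in 11 of the 13 promoters of mitotic kinesins (84.6%), in 3 of the 30 promoters of the other kinesins (10.0%) and in 24.0% of all 35116 promoters. KIF22 was the mitotic gene without one. The 3 other kinesins with a CHR were KIF5B, KIF16B and KIF4B, the last 2 being named here because their promoters matched. A CCAAT box was present in 10 of 13 mitotic promoters (76.9%), in 10 of 30 of the other promoters (33.3%) and in 34.6% of all promoters. CHR in either form and a CCAAT box occurred together in 9 of 13 (69.2%), 2 of 30 (6.67%) and 9.27%, respectively. E2F sites were found in 1 mitotic promoter (7.69%), in 1 of the other promoters (3.33%) and in 1164 of all promoters (3.31%). Some genes have more than 1 promoter in this count.

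**Figure D1:**
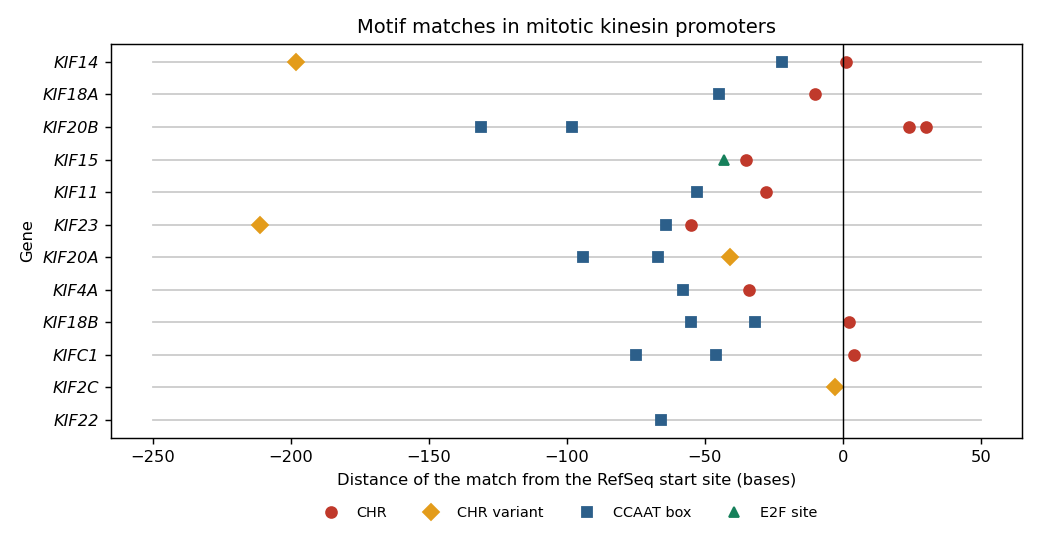
Position of each motif match in the promoters of the 12 mitotic kinesins, as the distance in bases of the first letter of the match from the RefSeq start site, which is at 0. Each row is 1 gene, grey lines span the 300 bases searched, and genes are ordered by log2 fold change with the lowest at the top. TTTGAA matches of the 5 genes whose promoters are printed lie between -35 and 1, and KIF14 also has the variant TTTAAA at -198, outside the printed stretch.

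The deposited values are counts of reads per gene, and each sample had between 17043314 and 22067558 counts. Counts are given as CPM, which divides each count by the depth of its sample, here corrected by edgeR's TMM factors. A gene was tested when it passed edgeR's filter on low counts, which kept 16290 genes and 37 of the 42 kinesins, including all 12 mitotic kinesins and 25 of the other kinesins. Genes were tested by the quasi-likelihood F test of edgeR, and the FDR is its p value after Benjamini-Hochberg adjustment over all genes tested. Differentially expressed genes (DEGs) were those with FDR below 0.05 whose log2 fold change was above 0.5 or below -0.5, which are the study's criteria. Controls 1 and 2 were much closer to each other than other replicates were, at a chi-square of 2.27 per gene on average, against 18.2 to 44.5 for the remaining pairs within a group. The study calls all samples biological replicates, and whether these 2 came from separate cultures is not given in the sources used here. With the pair summed there were 292 DEGs in place of 1866, so the FDR, SE and SD values given with n = 3 may understate the spread. The 7 mesenchymal markers ranged from 4.21 CPM (THY1) to 3239 CPM (FN1) in the control group. Of these, 4 (FN1, CD44, COL1A2 and NT5E) were higher with Apatinib at an FDR under 0.05, without overlap, but below the fold change limit. Over all genes tested, 12.9% had an FDR under 0.05 and 17.5% were higher without overlap. The adipocyte markers ADIPOQ and FABP4 and the blood marker PTPRC had 0 counts in the 6 samples. The 8 adipocyte markers were mixed. PPARG was at 51.0 CPM in the control group and 55.2 CPM in the Apatinib group, LPL was a DEG that rose from 10.2 to 18.3 CPM (log2 fold change 0.84, FDR 0.0237), and LIPE and PLIN1 had group means under 7 CPM. Of the endothelial markers, VWF was a DEG that was higher with Apatinib (2.38 against 0.805 CPM, log2 fold change 1.52, FDR 0.0386), CDH5 was a DEG that was lower (0.955 against 2.23 CPM, log2 fold change -1.22, FDR 0.0242), and KDR was below the filter at 0.399 and 0.381 CPM. The epithelial markers EPCAM, CDH1 and KRT19 and the blood marker CD3E were below the filter, the highest group mean being 0.708 CPM (KRT19, controls). The part of these markers in the kinesin results was not tested.

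Of the 12 mitotic kinesins, 7 fell and met the criteria for a DEG (KIF15, KIF18A, KIF14, KIF11, KIF4A, KIF20B and KIF23), and none rose. For comparison, 11.5% of all genes tested were DEGs, 5.48% lower and 5.97% higher. All 12 had a fitted log2 fold change below 0, from -1.40 to -0.35 with a median of -0.66, beside a median of 0.00 over all genes tested. In 11 of the 12, the highest Apatinib value was below the lowest control value, as in 15.7% of all genes tested. KIF2C was the exception. Mitochondrial genes took 5.16% to 5.69% of counts with Apatinib and 4.47% to 5.11% in controls, and the 10 most abundant genes took 6.33% to 7.02% and 5.46% to 6.14%. Between 24414 and 25169 genes had a count with Apatinib and between 25569 and 25866 in controls. Control 3 was the control nearest to the Apatinib group in all 3 measures, and their part in the kinesin results was not tested. The 5 mitotic kinesins that were not DEGs had an FDR between 0.0669 and 0.164.

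Of the 25 other kinesins tested, 4 were DEGs (16.0%, beside 11.5% of all genes tested). KIF5B and KIF2A fell, and KIF17 and KIFC3 rose. Of these 25, 12 were fitted lower and 13 higher, with log2 fold changes from -0.68 to 1.13 and a median of 0.05. The groups did not overlap in 5 genes that were lower and 8 that were higher with Apatinib, and over all genes tested 33.2% did not overlap, 15.7% lower and 17.5% higher. The difference between mitotic and other kinesins is described and was not tested. In RNA from whole cultures, fewer cells in G2 and M phase and less mRNA in each such cell cannot be told apart.

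**Figure D2:**
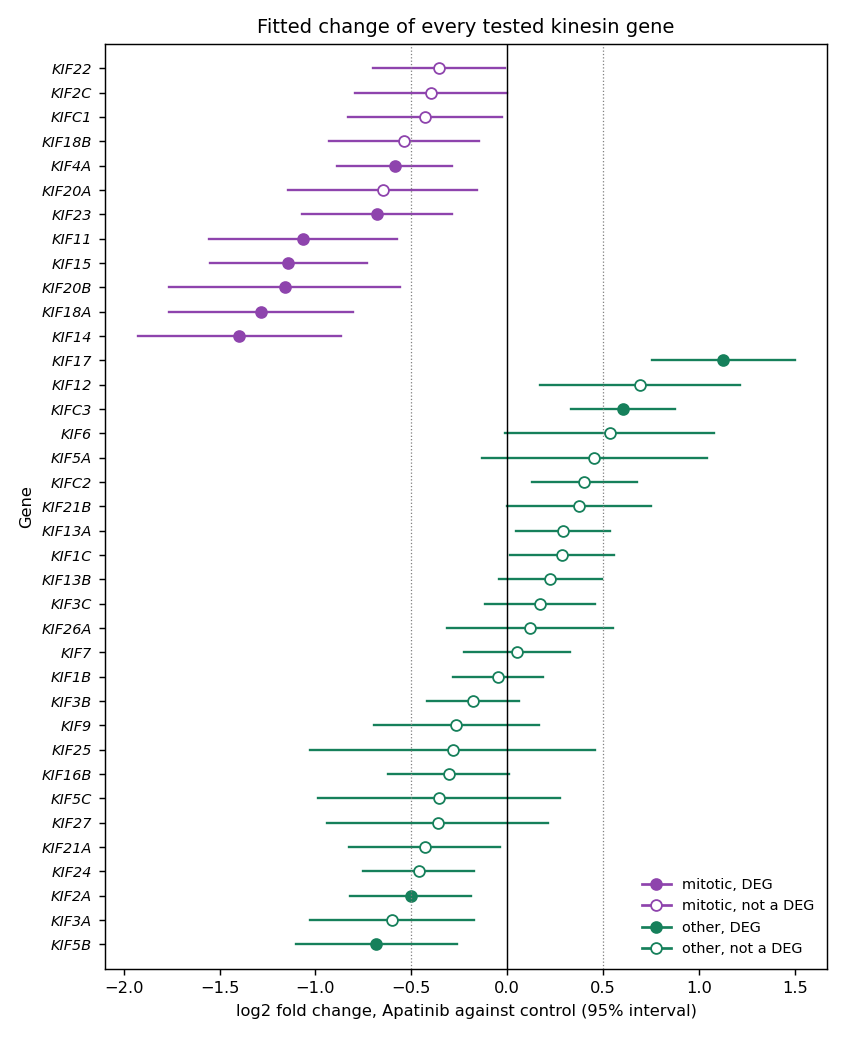
Fitted log2 fold change of Apatinib against control for the 37 kinesins tested, with 95% confidence intervals, mitotic kinesins in purple and other kinesins in green. Filled points are DEGs and dotted lines stand at -0.5 and 0.5. All 12 mitotic points lie left of 0, between -1.40 and -0.35, whereas the 25 other points spread from -0.68 to 1.13.

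The number of mitotic DEGs depended on the samples used. It was 3 with controls 1 and 2 summed, where 0.508% of all genes tested were lower DEGs, 3 without control 1 (0.497% of all genes) and 3 without control 2 (0.509%). It was 4 without Apatinib 1 (1.62%) and 4 without Apatinib 2 (3.63%). KIF14, KIF15 and KIF18A were DEGs in each of these fits. The 4 DEGs among the other kinesins became 1 (KIF17) with controls 1 and 2 summed, without control 1 or without control 2, where 1.75%, 1.65% and 1.8% of all genes were DEGs in either direction. It was 2 without Apatinib 1 (4.73% of all genes) and 2 without Apatinib 2 (8.91%). With controls 1 and 2 summed the FDR was 0.0727 for KIF11, 0.0871 for KIF4A, 0.0922 for KIF20B and 0.126 for KIF23, so these 4 lost their calls.

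Among the motors that set up the bipolar spindle, KIF11 (ENSG00000138160), the kinesin-5 motor that slides antiparallel microtubules apart, was at 57.9, 41.7 and 84.4 CPM in Apatinib replicates 1 to 3 and at 140, 143 and 102 CPM in control replicates 1 to 3. The groups did not overlap, and the mean with Apatinib was 47.8% of the control mean. The log2 fold change was -1.07 (SE 0.224, FDR 0.0150). KIF15 (ENSG00000163808), a kinesin-12 that helps KIF11 keep the spindle bipolar, was at 31.5, 29.9 and 42.9 CPM with Apatinib and at 86.8, 86.0 and 57.9 CPM in controls. All Apatinib replicates were lower, and KIF15 had the smallest p value among the mitotic kinesins, with a log2 fold change of -1.14 (SE 0.187, 95% confidence interval -1.55 to -0.73, FDR 0.00646).

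KIFC1 (ENSG00000237649), a minus-end-directed kinesin-14 that focuses spindle poles and clusters surplus centrosomes, changed less. Its values were 123, 70.3 and 108 CPM with Apatinib and 127, 128 and 150 CPM in controls. Apatinib 1 lay just under control 1, and the log2 fold change of -0.43 (95% confidence interval -0.83 to -0.03) did not pass the FDR limit (FDR 0.138). Without Apatinib 2 it was -0.22.

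The motors that act on chromosomes and kinetochores included both large and small changes. KIF18A (ENSG00000121621), a kinesin-8 that damps the movements of chromosomes at the spindle equator, was at 32.1, 32.3 and 41.7 CPM with Apatinib and at 102, 102 and 54.9 CPM in controls. Control 3 was nearer to the Apatinib replicates than to the other controls, yet the groups did not overlap. Its log2 fold change was -1.28 (SE 0.219, FDR 0.00760). KIF4A (ENSG00000090889), a chromokinesin of the chromosome arms and the central spindle, was at 144, 107 and 142 CPM with Apatinib and at 194, 188 and 207 CPM in controls. Its controls were close together, and the smaller log2 fold change of -0.59 (SE 0.136) passed the test (FDR 0.0218).

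KIF22 (ENSG00000079616), the chromokinesin that pushes chromosome arms away from the poles, was at 136, 87.1 and 119 CPM with Apatinib and at 138, 141 and 158 CPM in controls. Apatinib 1 was nearly level with control 1, and KIF22 was not a DEG (log2 fold change -0.35, 95% confidence interval -0.70 to -0.01, FDR 0.153), and its log2 fold change without Apatinib 2 was -0.19. KIF2C (ENSG00000142945), a kinesin-13 that depolymerizes microtubules at centromeres, was at 128, 73.2 and 113 CPM with Apatinib and at 133, 128 and 153 CPM in controls. Apatinib 1 was above control 2, so the groups overlapped, and the log2 fold change was -0.40 (95% confidence interval -0.80 to 0.00, FDR 0.164), also -0.19 without Apatinib 2. KIF18B (ENSG00000186185), a kinesin-8 that works with KIF2C to shorten astral microtubules, was at 77.5, 45.7 and 74.1 CPM with Apatinib and at 90.8, 95.3 and 101 CPM in controls. These groups did not overlap, but the log2 fold change of -0.54 (95% confidence interval -0.93 to -0.15) missed the FDR limit at 0.0669. For KIF18B the log2 fold change was -0.33 without Apatinib 2, and DESeq2 called it lower (FDR 0.0296).

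Of the motors of the central spindle and cytokinesis, KIF14 (ENSG00000118193), a kinesin-3 that recruits citron kinase to the midbody, had the largest fitted decrease of the 37 kinesins tested. It was at 25.4, 21.3 and 37.0 CPM with Apatinib and at 79.8, 91.7 and 49.2 CPM in controls. The Apatinib mean was 37.9% of the control mean, and the log2 fold change was -1.40 (SE 0.242, FDR 0.00776). KIF20B (ENSG00000138182), a kinesin-6 needed late in cytokinesis, was at 35.0, 24.7 and 48.7 CPM with Apatinib and at 88.2, 104 and 49.6 CPM in controls. Control 3 and Apatinib 3 differed by little, and the log2 fold change of -1.16 had the largest standard error of the mitotic set (SE 0.275, FDR 0.0233).

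KIF23 (ENSG00000137807), which forms the centralspindlin complex with RACGAP1, was at 94.6, 86.0 and 141 CPM with Apatinib and at 183, 182 and 151 CPM in controls. Its groups did not overlap, and it fell by 0.68 on the log2 scale (SE 0.178, FDR 0.0320). KIF20A (ENSG00000112984), which brings the chromosomal passenger complex to the central spindle, was at 406, 190 and 369 CPM with Apatinib and at 487, 484 and 542 CPM in controls. Apatinib 2 was far below the other Apatinib replicates. The log2 fold change of -0.65 (95% confidence interval -1.14 to -0.16) did not pass the FDR limit (FDR 0.0778). It was -0.38 without Apatinib 2, whereas DESeq2 with all replicates called KIF20A lower (FDR 0.0212).

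**Figure D3:**
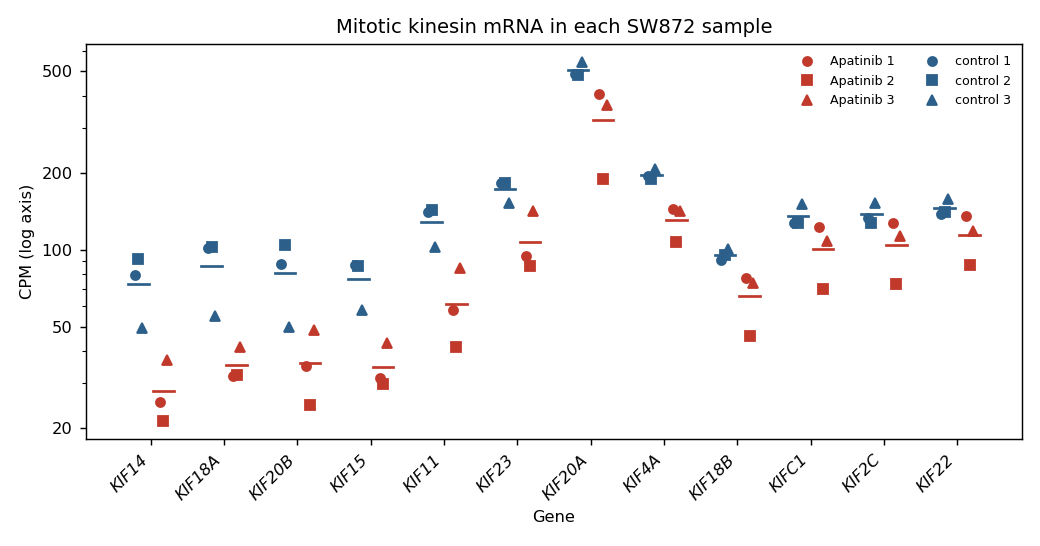
CPM of the 12 mitotic kinesins in each sample on a log axis, control in blue and Apatinib in red, with marker shape giving the replicate number and horizontal bars giving the mean of 3 replicates. Genes are ordered by log2 fold change. Controls 1 and 2 lie close together, control 3 lies below them in the 6 genes KIF14, KIF18A, KIF20B, KIF15, KIF11 and KIF23, and Apatinib 2 is the lowest red point in all genes but KIF18A.

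The replicates differed in a regular way across the mitotic set. Apatinib 2 was the lowest Apatinib replicate in 11 of 12 mitotic kinesins, all but KIF18A, and in 6 of 25 other kinesins. The median deviation of the mitotic kinesins from the control mean in log2 CPM was -0.65, -1.20 and -0.46 in Apatinib 1 to 3 and 0.04, 0.04 and -0.05 in controls 1 to 3. For the other kinesins these medians were 0.17, 0.08 and 0.00 with Apatinib and 0.05, -0.01 and 0.04 in controls. A list of 48 G2/M phase genes without KIF or KIFC symbols, which still holds the kinesin-7 CENPE, showed the same order of samples, with -0.53, -1.04 and -0.41 in Apatinib 1 to 3 and 0.01, 0.05 and -0.08 in controls.

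Control 3 did not deviate in 1 direction. It was below both other controls in 6 mitotic kinesins (KIF15, KIF18A, KIF14, KIF11, KIF20B and KIF23) and above both in the remaining 6. All but KIF4A of the 7 mitotic DEGs were in the first group. Summed over genes, the 12 mitotic kinesins took 1226, 829 and 1329 CPM of the unscaled library total in Apatinib 1 to 3 and 1879, 1876 and 1756 in controls 1 to 3, without overlap. The 30 other kinesins took 1355, 1450 and 1453 with Apatinib and 1548, 1534 and 1372 in controls, and these groups overlapped.

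GC content of the transcripts, taken from the longest GENCODE 29 transcript of each gene, moved with these differences. Across the 12 mitotic kinesins, Pearson's r of log2 fold change with GC content was 0.875 (Spearman's rho 0.930), so the AT-rich genes had the lower log2 fold changes. The mRNA of KIF20B has 34.2% GC, KIF18A 37.0% and KIF14 38.3%, whereas KIF22 has 58.9%, KIF18B 58.4% and KIFC1 57.9%. Across the 25 other kinesins r was 0.731 (rho 0.736), and across 15819 genes tested it was 0.388 (rho 0.440). The median GC content was 44.3% in the mitotic set, 51.4% in the other kinesins and 48.5% in all genes.

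The difference between control 3 and the mean of controls 1 and 2, which involves no drug, also rose with GC content, with r of 0.886 (rho 0.888) over the mitotic kinesins, 0.761 (rho 0.797) over the other kinesins and 0.512 (rho 0.593) over all genes. These are correlations across genes that share the same libraries, and both measures use the controls, so no p value is given. The correlation of log2 fold change with transcript length was -0.777 in the mitotic set and 0.003 in the other kinesins.

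**Figure D4:**
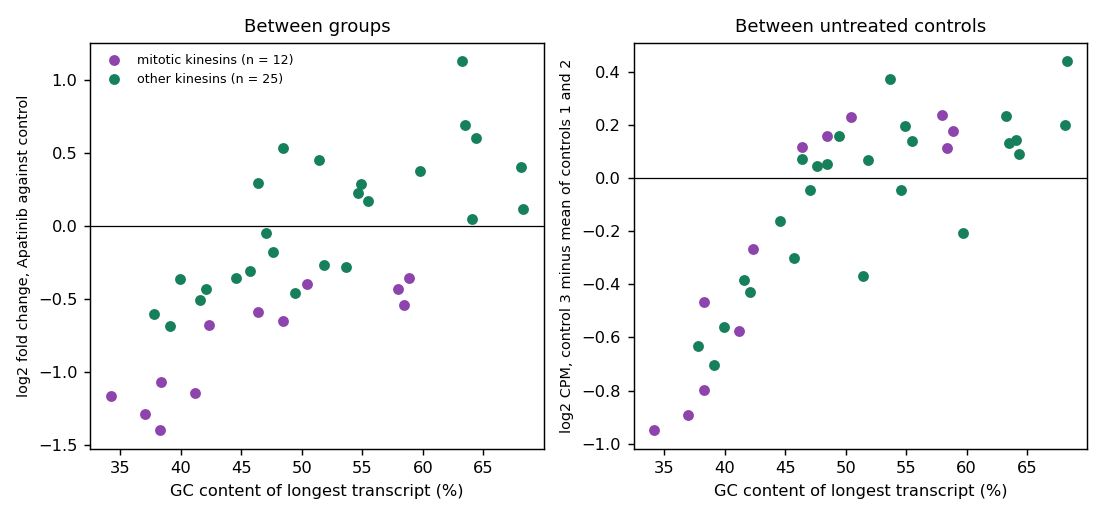
GC content in percent of the longest transcript of each kinesin against its log2 fold change between groups (left) and against the difference in log2 CPM between control 3 and the mean of controls 1 and 2 (right), for 12 mitotic (purple) and 25 other kinesins (green). Both differences rise with GC content. On the left most mitotic points lie below the other points of like GC content, with KIF24 (49.5% GC, -0.46) an exception among the other kinesins.

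A fit that took a smooth function of GC content out of each sample, chosen after seeing the data, called 9 of the 12 mitotic kinesins, all lower, beside 3.58% of all genes called lower. KIF18B (-0.71, FDR 0.0187), KIF22 (-0.53, FDR 0.0235) and KIFC1 (-0.60, FDR 0.0330) passed, and KIF20B did not (-0.67, FDR 0.0565). The median of the mitotic set was -0.68 in this fit, beside -0.66 without the correction, and the log2 fold changes narrowed to a range of -1.05 to -0.48, with an SD over genes of 0.176 in place of 0.376. KIF14 was at -1.05, KIF15 at -0.93 and KIF18A at -0.88. The other kinesins had 2 DEGs in this fit, and their median was -0.10. With this correction 8.7% of the 15819 genes were DEGs in either direction. What in the samples varied with GC content was not tested.

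The 4 DEGs among the other kinesins were of different families. KIF17 (ENSG00000117245), a kinesin-2 best known for carrying receptor vesicles in dendrites, was at 10.9, 10.7 and 9.96 CPM with Apatinib and at 4.62, 4.45 and 5.36 CPM in controls. It was a scarce mRNA, at 0.855 ± 0.0805 FPKM (SD, n = 3) in controls and 1.92 ± 0.0930 FPKM with Apatinib, and the replicates of a group lay close together. KIF17 rose by 1.13 on the log2 scale (SE 0.170, FDR 0.00485), the smallest p value of the 37 kinesins tested. KIFC3 (ENSG00000140859), a minus-end-directed kinesin-14 of the Golgi and of cell junctions, was at 147, 147 and 122 CPM with Apatinib and at 85.4, 93.4 and 95.1 CPM in controls. All Apatinib replicates were higher, with a log2 fold change of 0.60 (SE 0.123, FDR 0.0136). The call of KIFC3 was lost with controls 1 and 2 summed (FDR 0.0816), without control 1 (FDR 0.0948) or control 2 (FDR 0.0762), and with the GC correction (log2 fold change 0.37).

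KIF5B (ENSG00000170759), the widely expressed heavy chain of kinesin-1, was at 122, 128 and 166 CPM with Apatinib and at 247, 264 and 157 CPM in controls. Control 3 was below Apatinib 3, so the groups overlapped, although the test called it lower (log2 fold change -0.68, SE 0.192, FDR 0.0403). KIF2A (ENSG00000068796), a kinesin-13 that depolymerizes microtubules at spindle poles and in neurites, was at 106, 127 and 136 CPM with Apatinib and at 189, 189 and 145 CPM in controls. Its log2 fold change of -0.50 (SE 0.144, FDR 0.0423) was at the limit of the criteria, and DESeq2, which fitted -0.50 just inside that limit, did not call it. In its place DESeq2 called KIF3A lower, a motor subunit of kinesin-2 (FDR 0.0224). Both transcripts are AT-rich, and with the GC correction neither KIF5B (-0.37, FDR 0.0771) nor KIF2A (-0.32, FDR 0.0439) met the criteria.

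**Figure D5:**
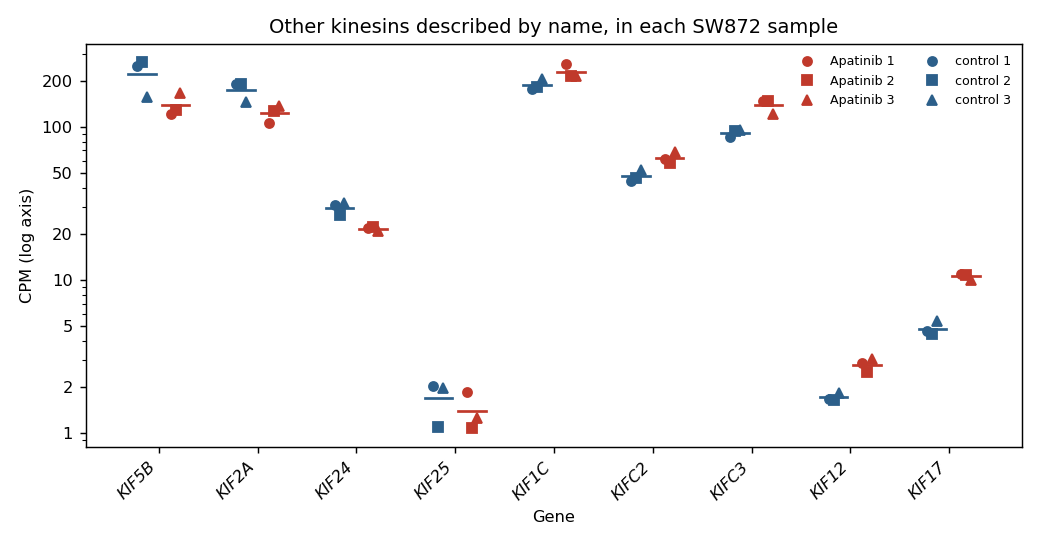
CPM of 9 other kinesins in each sample on a log axis, drawn as for the mitotic kinesins, with control in blue, Apatinib in red and bars at the mean of 3 replicates. KIF17 and KIFC3 are higher in all 3 Apatinib replicates, and control 3 of KIF5B lies below Apatinib 3.

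The relatives of mitotic kinesins that are not counted as mitotic did not all follow them. KIF24 (ENSG00000186638), a kinesin-13 of the mother centriole that restrains cilium formation, was at 21.8, 22.01 and 20.8 CPM with Apatinib and at 30.8, 26.3 and 31.8 CPM in controls. It passed the FDR limit (FDR 0.0428), as 12.9% of all genes tested did, but not the fold change limit (log2 fold change -0.46). With the GC correction KIF24 met both limits (-0.53, FDR 0.0124) and was, with KIF17, 1 of the 2 DEGs among the other kinesins in that fit. KIFC2 (ENSG00000167702), a kinesin-14 first known from neurons, was at 61.1, 58.2 and 68.6 CPM with Apatinib and at 44.2, 46.1 and 51.9 CPM in controls. Without overlap, its log2 fold change of 0.40 gave an FDR of 0.0558, whereas the mitotic kinesin-14 KIFC1 was fitted lower. The KIFC2 transcript has 68.1% GC. Over 15 alternative fits the FDR of KIFC2 ranged from 0.0393 to 0.484, and none called it.

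KIF12 (ENSG00000136883), of the same family as KIF15, was scarce at 2.85, 2.48 and 3.03 CPM with Apatinib and 1.67, 1.65 and 1.83 CPM in controls (log2 fold change 0.69, FDR 0.0751). KIF25 (ENSG00000125337), a kinesin-14, was at 1.86, 1.07 and 1.26 CPM with Apatinib and 2.02, 1.10 and 1.97 CPM in controls, with overlapping groups (FDR 0.613). KIF1C (ENSG00000129250), a kinesin-3 that carries vesicles, was abundant at 256, 216 and 216 CPM with Apatinib and 177, 182 and 205 CPM in controls (log2 fold change 0.29, FDR 0.143). With the GC correction the log2 fold change of KIF1C was 0.16. None of these 3 genes met the criteria.

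Of the members below the filter, KIF19, KIF1A, KIF26B, KIF2B and KIF4B, no sample had more than 8 counts. KIF2B (ENSG00000141200), a kinesin-13, had 0 counts in every sample, which allows up to 3 counts in each, for counting error alone. KIF19, a kinesin-8 that shortens cilia, had at most 3 counts. KIF4B is a near-identical copy of KIF4A without introns, so reads of the pair may have been shared, but KIF4B held at most 8 counts beside at least 1891 for KIF4A.

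Levels were compared between genes on the FPKM scale, which divides by transcript length. In controls the median level was 25.4 FPKM for the 12 mitotic kinesins and 5.06 FPKM for the 25 other kinesins tested, and with Apatinib it was 16.7 and 4.46 FPKM. KIF20A was the most abundant kinesin at 112 ± 5.12 FPKM (SD, n = 3) in controls and 71.4 ± 24.2 FPKM with Apatinib. KIF2A followed at 51.1 ± 8.60 FPKM in controls, and KIF22 at 49.1 ± 2.85 FPKM, a difference within their spread. KIF2C at 40.7 ± 3.81, KIF23 at 38.1 ± 5.31 and KIFC1 at 36.0 ± 2.24 FPKM in controls did not differ beyond their spread either. KIF14 was the least abundant mitotic kinesin in controls at 6.99 ± 2.16 FPKM. The 5 mitotic kinesins with the largest fitted decreases, KIF14, KIF18A, KIF20B, KIF15 and KIF11, were at 6.99 to 18.2 FPKM in controls.

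Of 28 partner genes that work with the mitotic motors on the spindle, 11 fell as DEGs (39.3%, beside 5.48% of all genes tested), and none rose. The list's median change was -0.53 on the log2 scale, and 22 genes were lower without overlap between groups, beside 15.7% of all genes tested. The count was 4 with controls 1 and 2 summed, without control 1 or without control 2. In these fits 0.508%, 0.497% and 0.509% of all genes tested were lower DEGs. The count was 7 without Apatinib 2, beside 3.63% of all genes. ECT2 (ENSG00000114346), the activator of RhoA that centralspindlin recruits for cytokinesis, was at 49.2, 43.5 and 63.0 CPM with Apatinib and 132, 136 and 83.2 CPM in controls (log2 fold change -1.17, FDR 0.00718). HMMR (ENSG00000072571), a spindle assembly factor, was at 79.4, 70.4 and 105 CPM with Apatinib and 218, 216 and 132 CPM in controls (log2 fold change -1.15, FDR 0.00847). CENPE (ENSG00000138778), a kinesin-7 that moves chromosomes to the spindle equator and whose symbol keeps it outside the KIF members, was at 43.0, 30.7 and 48.7 CPM with Apatinib and 122, 156 and 67.3 CPM in controls (log2 fold change -1.50, FDR 0.00847). All 3 had groups without overlap, with control 3 the lowest control. All 3 are also on the list of 48 G2/M phase genes, so the 2 lists share genes and are not independent.

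Partner genes of cargo transport, namely kinesin light chains, adaptors, dynein and dynactin subunits, were described for comparison. Of 31 tested, 2 were DEGs (6.45%, beside 11.5% of all genes tested), and the list's median change was -0.03 on the log2 scale. DYNLT3 (ENSG00000165169), a light chain of dynein, was at 50.7, 55.0 and 61.1 CPM with Apatinib and 108, 100.3 and 70.3 CPM in controls (log2 fold change -0.74, FDR 0.0178). KLC3 (ENSG00000104892), a kinesin light chain, was at 7.79, 5.36 and 6.41 CPM with Apatinib and 4.62, 3.30 and 2.84 CPM in controls (log2 fold change 0.87, FDR 0.0358). Neither DEG of this list was called with controls 1 and 2 summed, without control 1, without control 2 or without Apatinib 1, and 1 was called without Apatinib 3 or without control 3. In these fits, in that order, 1.75%, 1.65%, 1.8%, 4.73%, 12.1% and 15.5% of all genes tested were DEGs. The subunit ACTR1B (ENSG00000115073) of dynactin was not a DEG, with a log2 fold change of 0.40 and an FDR of 0.0517.

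Regulators that act at the promoter elements of mitotic genes were also examined. Of 14 tested, 3 were DEGs, each lower (21.4%, beside 5.48% of all genes tested), and the list's median change was -0.25 on the log2 scale. The count was 1 with controls 1 and 2 summed, without control 1 or without control 2. In these fits 0.508%, 0.497% and 0.509% of all genes tested were lower DEGs, and LIN9 and NFYB lost their calls. Both also lost them without Apatinib 2 (count 1, beside 3.63% of all genes) and without Apatinib 1 (count 2, beside 1.62%). RBL1 (ENSG00000080839), a pocket protein that joins MuvB in the repressive DREAM complex, was at 25.8, 23.7 and 28.3 CPM with Apatinib and 61.4, 65.0 and 48.1 CPM in controls (log2 fold change -1.16, FDR 0.00304). LIN9 (ENSG00000183814), a MuvB subunit, was at 10.2, 10.8 and 12.7 CPM with Apatinib and 26.0, 24.4 and 13.1 CPM in controls (log2 fold change -0.91, FDR 0.0296). NFYB (ENSG00000120837), a subunit of the CCAAT-binding factor NF-Y, was at 22.8, 23.0 and 30.4 CPM with Apatinib and 41.0, 40.1 and 31.8 CPM in controls (log2 fold change -0.57, FDR 0.0401). In all 3 genes control 3 was the control nearest to the Apatinib group.

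Exons of several kinesins overlap other genes in GENCODE 29. For the mitotic members, the overlaps were on the opposite strand, such as 13.01% of the exon bases of KIF22, 12.7% of KIFC1, 3.34% of KIF20A with BRD8, 1.70% of KIF4A with PDZD11 and 1.31% of KIF18A with METTL15. KIFC2 shares 17.8% of its exon bases with FOXH1 on the opposite strand, and KIF2A shares 8.97% with IPO11 on the same strand. The counting is not stated to have used strand, so reads in these stretches may belong to either gene.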

How the data were processed

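RNA of SW872 cells was sequenced in 3 Apatinib and 3 control samples, grouped by their titles. The study calls them biological replicates. The authors deposited a table of raw counts per gene and, for each sample, FPKM values (fragments per transcript length and depth). The submitters' processing notes name STAR 2.7.1a, CASAVA and build hg19. The counting program, annotation and strand setting are not given in the sources used here. In the FPKM file of Apatinib 1, 1 column headed as a control was left out.

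Counts were analysed with edgeR 4.0.16 in R 4.3.3 (filterByExpr, TMM, quasi-likelihood F test, Benjamini-Hochberg adjustment over 16290 genes), without a block. All 6 samples entered the fit. DEGs needed FDR below 0.05 and a change beyond 0.5 on the log2 scale in either direction. Intervals are 95% confidence intervals of the fit and include counting error. The main edgeR fit was tested on simulated counts, and the alternative fits were not. The mitotic kinesins had 377 to 11825 counts per sample. FPKM values were used for levels and, with a pseudocount of 1 or 0.1 on the log2 scale, in limma 3.58.1 (genes with mean FPKM above 0.5). DESeq2 1.42.0, RLE size factors, dropping the filter (total of 1 or more), requiring 10 counts per sample, a replicate block, leaving out each replicate, summing controls 1 and 2, an FDR limit alone and glmTreat were alternatives. A loess correction for transcript GC content (span 0.3, 97.1% of tested genes) was added after seeing the data. Promoters are from RefSeq, GRCh38.p14, and exon overlaps and GC content from GENCODE 29.

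The members and gene lists were chosen with earlier results of these data known. Named genes were all mitotic kinesins, other kinesins that were DEGs, the 5 other kinesins with the highest mean FPKM, the relatives of mitotic members in kinesin-8, kinesin-12, kinesin-13 and kinesin-14, and, from each partner list, the 3 genes of lowest p value. Genes with duplicate symbols were resolved by Ensembl identifier.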

Additional observations from a re-analysis of the deposited data

How the results depend on the processing

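No named gene changed direction under the alternatives run. KIF14, KIF15, KIF18A and KIF17 kept their calls under 15 alternative fits and lost them under glmTreat, which tests against the fold change limit itself (FDR 0.0676, 0.0705, 0.0676 and 0.0598). When 1 replicate was left out, the number of DEGs (1866) ranged from 275 (without control 1, 1.65% of all genes tested) to 2594 (without control 3, 15.5%). It was 2054 with DESeq2 and 1377 with the GC correction, which was chosen after seeing the data. Leaving out 1 replicate gave 3 to 7 mitotic kinesins (7 in the full fit), 1 to 5 other kinesins (4), 4 to 11 spindle partners (11), 0 to 2 transport partners (2) and 1 to 3 regulators (3). Controls 1 and 2 summed gave 292 DEGs (1.75% of all genes tested), 3 mitotic kinesins, 1 other kinesin, 4 spindle partners, 0 transport partners and 1 regulator. With limma there were 796 DEGs on log2(FPKM + 1) (5.03% of genes tested) and 810 on log2(FPKM + 0.1) (5.12%). On both scales there were 5 mitotic kinesins, 2 other kinesins, 7 spindle partners, 0 transport partners and 1 regulator. Under glmTreat, 74 genes remained (0.454% of all genes tested), with 0 mitotic kinesins, 0 other kinesins, 0 spindle partners, 0 transport partners and 1 regulator. At an unadjusted p under 0.05 in the edgeR test, 11 mitotic kinesins, 11 other kinesins, 19 spindle partners, 7 transport partners and 6 regulators passed, beside 30.6% of all genes tested. DESeq2 called 9, 4 (KIF3A in place of KIF2A), 13, 2 and 4 DEGs on these lists, beside 6.3% of the 32596 genes it gave a p value. It was run without the filter on low counts and gave some scarce genes no FDR. Its share is therefore on a wider base than the 11.5% of 16290 genes in the main fit.

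The GC correction called 8.7% of all genes tested. It called 2 other kinesins (KIF17, and KIF24 in addition), 0 transport partners, and 9 mitotic kinesins, where KIF18B, KIF22 and KIFC1 were gained and KIF20B was lost. The median log2 fold change of the mitotic kinesins stayed between -0.84 and -0.49 with 1 replicate left out. That of the other kinesins was near 0 and moved to 0.12 with DESeq2, 0.13 without a filter, -0.10 with the GC correction, -0.045 without control 2, and between -0.05 and 0.10 with 1 replicate left out. The cause of these shifts was not tested.

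Replicate numbers did not pair the samples (correlations of deviations -0.259, 0.0808 and -0.220). With the replicate block there were 2215 DEGs (13.6% of all genes tested), 9 mitotic kinesins, 5 other kinesins, 15 spindle partners, 2 transport partners and 4 regulators.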
